A study of Mus musculus with 6 samples.

Results

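Genes of fatty acid and glycerolipid synthesis were examined in NCU10K cells, an immortalised mouse neural crest line, after knockdown of Nedd4. NEDD4 is a ubiquitin ligase, an enzyme that attaches ubiquitin to other proteins. The genes were taken from a list of 46 by their role in the pathway, from the supply of acetyl-CoA through the building, desaturation and elongation of fatty acids to phospholipids, triglyceride and lipid droplets. Of these, 44 were measured, among 19933 genes with a probeset of their own on the array. Acsl1 is not among the genes that the array annotation names, and Acsl3 shared its only probeset with Utp14b, so neither was counted.

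Cells received a Nedd4 siRNA, a short double-stranded RNA that directs cleavage of Nedd4 mRNA, or a low GC control siRNA. All cells were the same line in DMEM with foetal calf serum, transfected with RNAiMAX and taken 48 h later, and each group held 3 biological replicates, every one hybridised to its own Affymetrix mouse gene array. Only a single Nedd4 siRNA was used and no rescue was described for these arrays, so loss of Nedd4 and other effects of that siRNA cannot be told apart. Serum brings lipid into the medium of both groups. The submitters' notes place the cultures in dishes and the methods in a multiwell plate, which was not resolved here.

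Values are log2 expression, on which a difference of 1 is a 2-fold change, and each is for 1 probeset, so that only differences between the groups are compared from gene to gene, not levels. Every fold change is Nedd4 siRNA minus control siRNA with its standard error (SE), and p-values are from limma, adjusted over all 28440 probesets with a threshold of 0.05. Nedd4 itself was 3.07-fold lower, at 10.45, 10.94 and 10.68 on the Nedd4 siRNA arrays against 12.24, 12.35 and 12.34 on the control siRNA arrays. Array medians lay between 6.28 and 6.35, and replicates of a probeset scattered with a median SD of 0.117. Array 2 had the highest value of the 3 Nedd4 siRNA arrays for 30 of the 44 members, and of the 3 control siRNA arrays for 31 of 44. Over all genes these shares were 37.5% and 33.2%. Of 10 measured neural crest markers, none lay among the 25% of probesets with the lowest mean. Of these markers 1 was higher and 6 were lower with Nedd4 siRNA, beside 9.62% and 9.13% of all genes, shares that stand beside the other marker counts too. All 10 lay above the 50th percentile of mean level, where 33.4% of genes changed in either direction. The ANOVA named in the study's methods gave 3 lower and 0 higher. The mean log2 level of the 10 was 9.42 to 9.54 on the Nedd4 siRNA arrays and 9.78 to 9.88 on the control siRNA arrays. For 8 Schwann cell and myelin markers the mean was 7.61 to 7.72 on the Nedd4 siRNA arrays and 8.21 to 8.25 on the control siRNA arrays, with 1 higher and 3 lower. The median log2 fold change of the 8 was −0.19. The largest falls were those of Pmp2 (−3.24) and Cnp (−1.58), and the 1 that rose was Egr2 (0.90). None of 8 adipocyte markers and none of 6 hepatocyte markers passed the threshold. The adipocyte mean was 5.47 to 5.62 with Nedd4 siRNA and 5.48 to 5.67 with control siRNA, and 4 of its 8 markers were among the dimmest 25%. Of 7 macrophage markers only Cd68 passed, with less in the Nedd4 siRNA cells, and 4 of the 7 were among the dimmest 25%. Of 8 fibroblast and smooth muscle markers 2 were higher, and the list mean was 6.97 to 7.04 with Nedd4 siRNA and 6.72 to 6.81 with control siRNA. Of 6 neuron markers 2 were higher. No marker of the endothelial or the epithelial list (4 genes each) passed. The part of these markers in the lipid gene results was not tested. In bulk RNA, fewer cells of a type and less RNA per cell cannot be told apart.

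As background, cells make fatty acids from acetyl-CoA in the cytosol, extend and desaturate them at the endoplasmic reticulum, and join them to glycerol 3-phosphate in steps that lead to phosphatidic acid. From there one route, through diacylglycerol, yields triglyceride, phosphatidylcholine and phosphatidylethanolamine, and the other, through CDP-diacylglycerol, yields phosphatidylinositol and cardiolipin. Many of these genes are known targets of SREBP transcription factors, which also control cholesterol synthesis, and cells of the neural crest lineage later include Schwann cells, which make large amounts of membrane lipid for myelin.

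Among the members, 15 of 44 (34.1%) changed with Nedd4 siRNA. Elovl5, Agpat1, Dgat2, Ptdss1, Agpat2, Elovl6, Ptdss2, Acaca and Fads2 fell, and Agpat3, Gpam, Mgll, Lpin1, Plin2 and Lipe rose. Over all genes 18.7% changed, 9.62% higher and 9.13% lower. Dim probesets seldom passed, and most members were not dim: among the 10322 genes above the 50th percentile of mean level 33.4% changed, beside 14 of the 35 members there (40.0%). The share of members that changed was therefore near that of other genes of similar level, and the count is not a result about the pathway. The counts by role given below stand beside the same shares. Each rests on few members and is likewise not read as a result about a role. The median log2 fold change of the 44 was −0.07, beside −0.02 over all genes, and 19 were above 0. The groups did not overlap for 11 members that were higher and 12 that were lower, beside 16.1% and 15.6% of all genes (31.7% in both directions). The methods' t-test, the ANOVA named in the study's methods with the siRNA as its factor, gave 6 members (Agpat3, Mgll and Plin2 higher; Elovl5, Agpat1 and Dgat2 lower), beside 9.05% of all genes. Of the 15, 10 passed limma in each of 6 fits that left out 1 array in turn. The other 5 (Elovl6, Ptdss2, Acaca, Fads2 and Lipe) each lost the call in at least 1, and all 5 were lost without Nedd4 siRNA replicate 1 and by the methods' t-test.

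**Figure D1:**
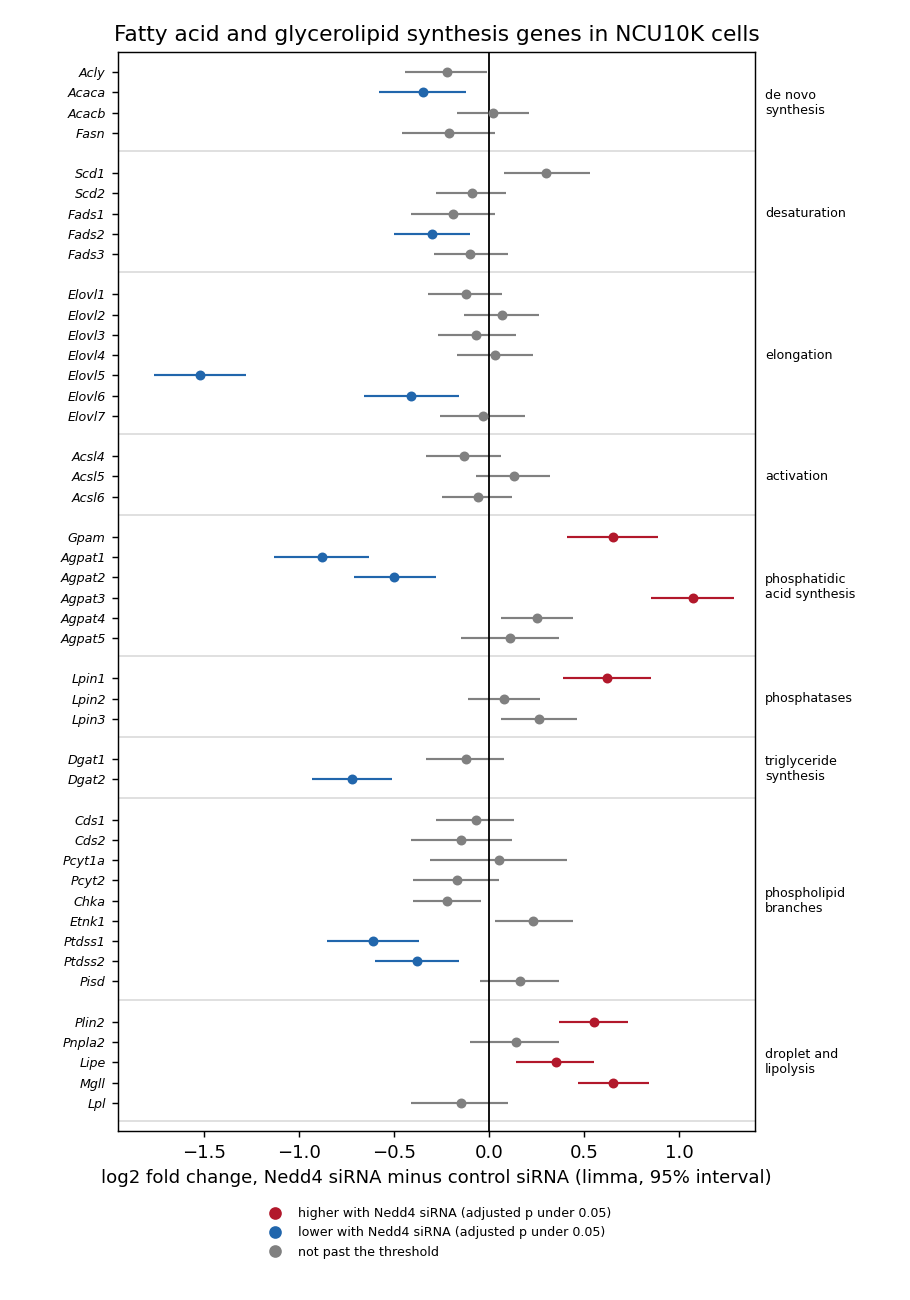
Log2 fold change (Nedd4 siRNA minus control siRNA, x axis) of the 44 measured members, in rows grouped by role, with the 95% interval from limma as a horizontal line. Red marks the 6 members that rose, blue the 9 that fell and grey the 29 not past the threshold. Elovl5 (−1.52) and Agpat3 (1.07) lie farthest to each side.

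De novo synthesis starts with ATP citrate lyase (Acly), which makes cytosolic acetyl-CoA, and acetyl-CoA carboxylase (Acaca and Acacb), which turns it into malonyl-CoA for fatty acid synthase (Fasn). Of the 4 genes 1 was lower. Acaca was at 9.10, 9.33 and 9.06 with Nedd4 siRNA, against 9.53, 9.65 and 9.37 with control siRNA. The groups were separated by a narrow gap, and the log2 fold change was −0.35 (SE 0.11, adjusted p = 0.0377). This probeset, the brighter of those named Acaca, stands in the order of probeset numbers between those of Osr1 and Nt5c1b, genes of chromosome 12 in the RefSeq annotation, whereas Acaca lies on chromosome 11. It was the only 1 of 45 member probesets with no neighbour on the chromosome of its gene, so what it measures is uncertain. The dimmer Acaca probeset, which stands beside Synrg of chromosome 11, was at 7.74, 7.91 and 7.91 with Nedd4 siRNA against 8.32, 8.24 and 8.19 with control siRNA. It was also lower with Nedd4 siRNA, at −0.40 (SE 0.090, adjusted p = 0.00857). Acly had values of 9.53, 9.51 and 9.63 on the Nedd4 siRNA arrays and 9.87, 9.88 and 9.59 on the control siRNA arrays, which overlap, and did not pass (−0.22, adjusted p = 0.183). Fasn did not pass either, with a log2 fold change of −0.21 and a 95% interval of −0.46 to 0.03, and Acacb, known mainly for its part in restraining fatty acid oxidation, had 0.02 (−0.17 to 0.21).

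Desaturases place double bonds in fatty acids, with stearoyl-CoA desaturases (Scd1, Scd2) making monounsaturated chains and FADS1 and FADS2 acting on polyunsaturated ones. Only Fads2, the delta-6 desaturase, passed. Its values were 11.82, 11.97 and 11.75 with Nedd4 siRNA and 12.18, 12.21 and 12.05 with control siRNA. The groups came close without overlapping, and the difference was −0.30 on the log2 scale (SE 0.094, adjusted p = 0.0472). Scd1 had higher values on each Nedd4 siRNA array (12.64, 12.70 and 12.59) than on the control siRNA arrays (12.17, 12.32 and 12.53). The spread of the control arrays was the wider one, and the difference of 0.30 (SE 0.10) did not pass (adjusted p = 0.0668). Scd2 was at 12.00, 12.09 and 12.08 with Nedd4 siRNA against 12.10, 12.15 and 12.20 with control siRNA. These groups touch without overlapping, and the log2 fold change was −0.09 (adjusted p = 0.600). Fads1, the delta-5 desaturase, had −0.19 (95% interval −0.41 to 0.03) and Fads3 had −0.10 (−0.29 to 0.10).

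Elongases (ELOVL proteins) carry out the first step of each round that adds carbons to a fatty acid, and differ in the chains they take. Elovl5, which extends polyunsaturated fatty acids such as those made by FADS2, had the largest change of all 44 members. It was at 9.21, 9.60 and 9.30 with Nedd4 siRNA, against 10.90, 10.98 and 10.78 with control siRNA. The highest Nedd4 siRNA value thus lay well below the lowest control value. Elovl5 was 2.86-fold lower (log2 fold change −1.52, SE 0.11, adjusted p = 3.46e-06), and also passed by the methods' t-test (adjusted p = 0.0190). Elovl6, which extends saturated chains up to the length of stearate, was at 9.12, 9.47 and 9.25 with Nedd4 siRNA, against 9.51, 9.70 and 9.86 with control siRNA. Nedd4 siRNA replicate 2 and control siRNA replicate 1 almost met, and the log2 fold change was −0.41 (SE 0.12, adjusted p = 0.0287). The other elongases gave differences near 0. Elovl1, which makes very long saturated chains, had −0.12 (95% interval −0.32 to 0.07), Elovl4 had 0.03 (−0.17 to 0.23) and Elovl7 had −0.03 (−0.26 to 0.19). Elovl2 (0.07) and Elovl3 (−0.07) were among the 4 members in the dimmest 25% of probesets, with Acsl6 and Lpl, where a change in RNA may not show.

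The promoter of Elovl5 is shown because this gene changed most. The RefSeq window on GRCm38.p6, chr9:77917115-77917414 on the plus strand, runs from 250 bases before the start of the gene to 50 after it, with an E-box, CACGTG, in capitals. The E-box, a site that many basic helix-loop-helix factors can bind, was picked as a motif after the expression values were seen.
Elovl5: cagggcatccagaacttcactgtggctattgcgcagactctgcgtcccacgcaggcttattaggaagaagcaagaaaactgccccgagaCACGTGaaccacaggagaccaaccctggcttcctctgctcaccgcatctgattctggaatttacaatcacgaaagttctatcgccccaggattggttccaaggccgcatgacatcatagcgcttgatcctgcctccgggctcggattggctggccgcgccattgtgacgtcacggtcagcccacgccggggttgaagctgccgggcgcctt
The E-box begins at position −161 from the start, and CCAAT, read on either strand, begins at −71 and −17. Windows were found for 34 of the 44 members, 13 of them past the threshold; Ptdss1 and Dgat2 had none in the table used. CACGTG, which reads alike on both strands, was in the windows of 7 of the 34 (Elovl4, Elovl5, Lipe, Lpin2, Lpin3, Mgll and Plin2), beside 8.09% of all 27025 genes with a window. By call, these were 3 of 6 members that rose, 1 of 7 that fell and 3 of 21 not past the threshold. CCAAT was in 17 of the 34, beside 41.1% of all genes, with 2 of 6 members that rose, 2 of 7 that fell and 13 of 21 not past the threshold. With so few members in each group, nothing is read from either split. A match is a string of letters in this window and not a site shown to be bound.

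Activation joins fatty acids to coenzyme A. Of the 3 long-chain acyl-CoA synthetases measured, none passed. Acsl4, which prefers arachidonate, was at 10.95, 10.85 and 10.98 with Nedd4 siRNA against 11.03, 11.00 and 11.15 with control siRNA. Acsl5 was at 9.89, 9.90 and 9.81 with Nedd4 siRNA against 9.79, 9.80 and 9.63 with control siRNA. In both the groups lay side by side without overlap, in opposite directions, and the log2 fold changes of −0.13 (adjusted p = 0.423) and 0.13 (adjusted p = 0.457) did not pass. Acsl6 had −0.06 (95% interval −0.25 to 0.12). The probeset that Acsl3 shares with Utp14b was at 8.09, 8.19 and 8.21 with Nedd4 siRNA against 7.91, 8.08 and 7.86 with control siRNA (0.21, adjusted p = 0.164), and cannot be given to either gene.

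In phosphatidic acid synthesis, 4 of 6 members changed, and in both directions. This was 66.7%, beside 18.7% of all genes and 33.4% of those above the 50th percentile of level, where all 6 lay. By the methods' t-test 2 of the 6 passed, Agpat3 and Agpat1. Gpam encodes the mitochondrial glycerol-3-phosphate acyltransferase, which adds the first acyl chain, and AGPAT enzymes add the second. Gpam was at 8.12, 8.32 and 8.07 with Nedd4 siRNA, against 7.43, 7.73 and 7.40 with control siRNA. All Nedd4 siRNA arrays were above all control arrays, and Gpam was 1.57-fold higher (0.65, SE 0.11, adjusted p = 0.00131). Agpat3 was at 10.27, 10.27 and 10.12 on the Nedd4 siRNA arrays and 9.18, 9.29 and 8.97 on the control siRNA arrays. It was the largest rise among the members, at 2.10-fold (log2 fold change 1.07, SE 0.10, adjusted p = 2.10e-05). Agpat1 went the other way, with 8.38, 8.46 and 8.33 on the Nedd4 siRNA arrays and 9.23, 9.53 and 9.06 on the control siRNA arrays. These groups were also far apart, and Agpat1 was 1.84-fold lower (−0.88, SE 0.12, adjusted p = 0.000208). Agpat2, the member of the family whose loss in humans causes a form of lipodystrophy, was at 9.62, 9.91 and 9.66 with Nedd4 siRNA against 10.18, 10.30 and 10.20 with control siRNA. It was 1.41-fold lower (−0.50, SE 0.099, adjusted p = 0.00381), with no overlap. Agpat4 was at 7.91, 8.01 and 7.82 with Nedd4 siRNA against 7.67, 7.69 and 7.62 with control siRNA. Its groups did not overlap, yet the difference of 0.25 did not pass (adjusted p = 0.0743). Agpat5 had 0.11, with a 95% interval of −0.15 to 0.37.

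**Figure D2:**
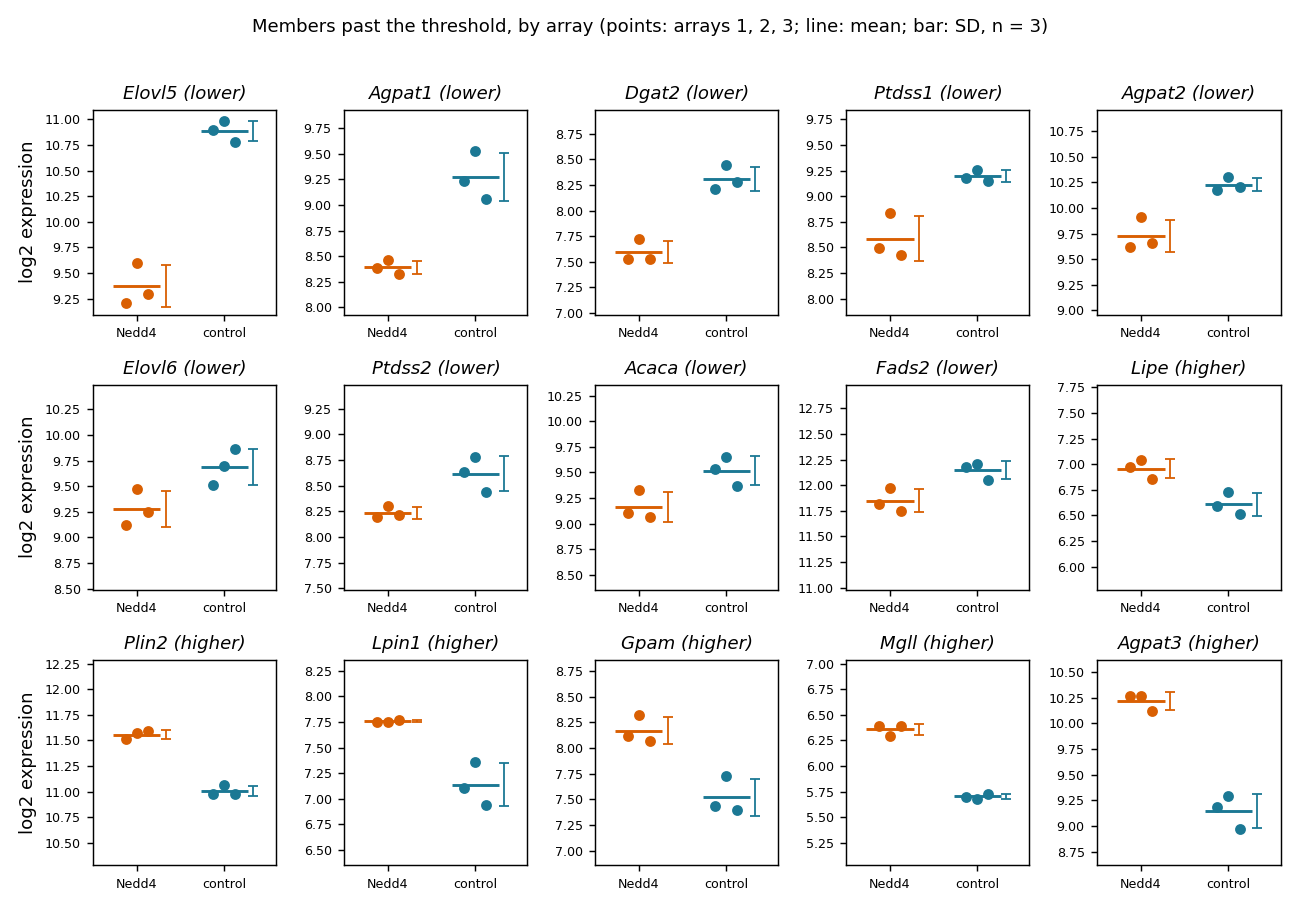
Log2 expression (y axis, each panel spanning the same number of log2 units) of the 15 members past the threshold on each array, Nedd4 siRNA in orange and control siRNA in blue, with the mean as a line and the SD of 3 arrays as a bar. The groups overlap in none of the 15, with the widest gaps for Elovl5 and Agpat3 and the narrowest for Acaca, Elovl6 and Fads2.

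Lipins remove the phosphate of phosphatidic acid to give diacylglycerol, and 1 of 3 rose. Lpin1 was at 7.75, 7.75 and 7.77 with Nedd4 siRNA, against 7.11, 7.36 and 6.94 with control siRNA. The Nedd4 siRNA arrays were nearly alike and the control arrays spread more (SD 0.0115 and 0.211), and Lpin1 was 1.54-fold higher (0.62, SE 0.11, adjusted p = 0.00149). Lpin3 was at 6.55, 6.43 and 6.37 with Nedd4 siRNA against 6.20, 6.26 and 6.11 with control siRNA, without overlap, but did not pass (0.26, adjusted p = 0.0743). Lpin2 had 0.08 (95% interval −0.11 to 0.27).

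The last step to triglyceride is catalysed by DGAT1 and DGAT2, which are unrelated in sequence. Dgat2 was at 7.53, 7.72 and 7.53 with Nedd4 siRNA, against 8.21, 8.44 and 8.28 with control siRNA. The groups were clearly apart, and Dgat2 was 1.64-fold lower (−0.72, SE 0.097, adjusted p = 0.000274). Dgat1 was at 9.05, 9.15 and 9.04 with Nedd4 siRNA and 9.16, 9.34 and 9.11 with control siRNA, which overlap (−0.12, adjusted p = 0.50). Taken within each array, the log2 ratio of Dgat1 to Dgat2 was 1.52, 1.43 and 1.51 with Nedd4 siRNA and 0.95, 0.90 and 0.83 with control siRNA. The size of such a ratio depends on the probes, and only its shift between groups is read. This ratio shifted by 0.59, with no overlap between the groups (two-sided exact permutation test over arrays, p = 0.1, the smallest that 3 arrays against 3 allow, and 0.28 after adjustment over 7 such pairs).

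Of these 7 ratios, that of Scd1 to Scd2 also separated the groups in full, at 0.64, 0.61 and 0.51 with Nedd4 siRNA and 0.07, 0.17 and 0.33 with control siRNA. It shifted by 0.40 (exact p = 0.1, adjusted 0.28). The remaining 5 pairs overlapped, with shifts of −0.37 for Acaca to Acacb, −0.23 for Ptdss1 to Ptdss2, 0.23 for Pcyt1a to Pcyt2, 0.11 for Fads1 to Fads2 and 0.07 for Cds1 to Cds2. Acaca was taken from its brighter probeset, and what that probeset measures is uncertain. The overlap for Acaca to Acacb holds for that probeset only, and the dimmer Acaca probeset was not tried alone. No pair could pass 0.05 in this design.

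**Figure D3:**
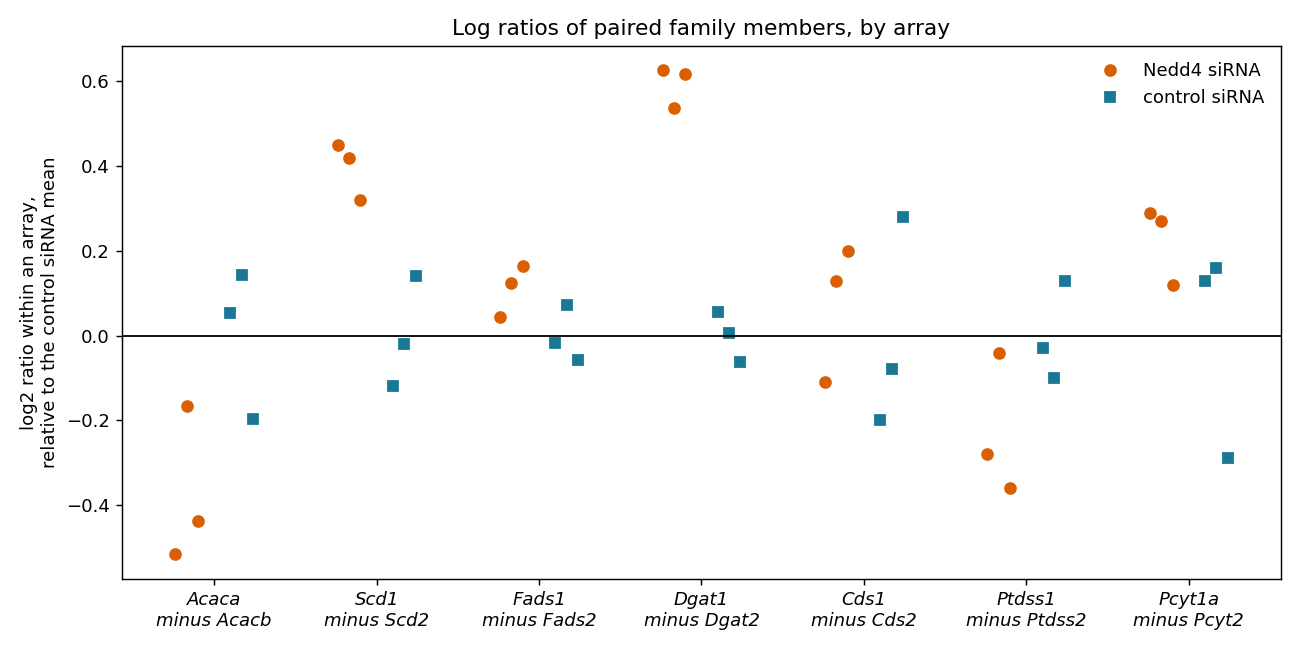
Log2 ratio of the members of each pair within an array (y axis, relative to the mean of the control siRNA arrays), Nedd4 siRNA as orange circles to the left and control siRNA as blue squares to the right of each position. The groups separate for Dgat1 minus Dgat2 (shift 0.59) and Scd1 minus Scd2 (shift 0.40) and overlap for the other 5 pairs. Acaca is drawn from its brighter probeset, whose target is uncertain.

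In the phospholipid branches, 2 of 9 members fell and none rose, and both encode phosphatidylserine synthases, which exchange the head group of phosphatidylcholine (PTDSS1) or phosphatidylethanolamine (PTDSS2) for serine. Ptdss1 was at 8.49, 8.84 and 8.43 with Nedd4 siRNA, against 9.18, 9.26 and 9.15 with control siRNA. Its Nedd4 siRNA replicate 2 was the nearest to the controls, and Ptdss1 was 1.53-fold lower (−0.61, SE 0.11, adjusted p = 0.00214). Ptdss2 was at 8.19, 8.30 and 8.21 with Nedd4 siRNA, against 8.63, 8.78 and 8.44 with control siRNA. Here the groups did not overlap, and the log2 fold change was −0.38 (SE 0.10, adjusted p = 0.0197). Pisd, whose product turns phosphatidylserine into phosphatidylethanolamine in mitochondria, had 0.16 (95% interval −0.05 to 0.37). Chka encodes choline kinase, the first step of the choline branch. It was at 7.59, 7.59 and 7.50 with Nedd4 siRNA against 7.78, 7.83 and 7.73 with control siRNA, without overlap, and did not pass (−0.22, adjusted p = 0.111). Etnk1, the ethanolamine kinase, was at 8.12, 7.99 and 7.96 with Nedd4 siRNA against 7.66, 7.89 and 7.82 with control siRNA. It too was free of overlap, in the other direction, and did not pass (0.23, adjusted p = 0.132). The enzymes that set the pace of the choline and ethanolamine branches gave 0.05 (−0.31 to 0.41) for Pcyt1a and −0.17 (−0.40 to 0.05) for Pcyt2. Pcyt1a had the widest interval of all members, with 8.45, 8.51 and 8.04 on the Nedd4 siRNA arrays and 8.42, 8.54 and 7.88 on the control siRNA arrays. The CDP-diacylglycerol synthases had −0.07 (−0.28 to 0.13) for Cds1 and −0.15 (−0.41 to 0.12) for Cds2.

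Among the droplet and lipolysis genes, 3 of 5 rose and none fell, beside 9.62% of all genes that were higher. The methods' t-test gave 2 of the 5. With so few genes the count is not read as a result about this role. Plin2 encodes perilipin 2, which coats lipid droplets in most cell types. It was at 11.51, 11.57 and 11.59 with Nedd4 siRNA, against 10.98, 11.06 and 10.98 with control siRNA. Both groups were tight (SD 0.0416 and 0.0462), and Plin2 was 1.46-fold higher (0.55, SE 0.084, adjusted p = 0.000624). Mgll, the monoacylglycerol lipase that completes triglyceride breakdown and degrades an endocannabinoid, was at 6.39, 6.29 and 6.39 with Nedd4 siRNA against 5.70, 5.68 and 5.73 with control siRNA. The gap was far wider than either spread, and Mgll was 1.57-fold higher (0.65, SE 0.084, adjusted p = 0.000187). Lipe, the hormone-sensitive lipase, was at 6.97, 7.04 and 6.86 with Nedd4 siRNA against 6.59, 6.73 and 6.51 with control siRNA. Its groups did not overlap, and its log2 fold change was 0.35 (SE 0.094, adjusted p = 0.0234). Pnpla2, the lipase that takes the first chain from triglyceride, had 0.14 (95% interval −0.10 to 0.37). Lpl, the secreted lipase that acts on lipoproteins, had −0.15 (−0.41 to 0.10).

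These 3 genes that rose each hold a CACGTG in a RefSeq window of the kind used above. The 6 members that rose had 9 windows in all, of which 3 held it. It was also in windows of Elovl4, Lpin2 and Lpin3, which did not pass, and nothing is read from its presence here. The surrounding bases are shown for comparison with Elovl5, with the E-box in capitals. The stretches are chr4:86670031-86670090 (minus strand) for Plin2, chr6:88724341-88724400 (plus strand) for Mgll and chr7:25396110-25396169 (minus strand) for Lipe, on GRCm38.p6.
Plin2: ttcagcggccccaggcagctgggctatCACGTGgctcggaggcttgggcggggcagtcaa
Mgll: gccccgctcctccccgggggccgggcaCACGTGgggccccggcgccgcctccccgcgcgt
Lipe: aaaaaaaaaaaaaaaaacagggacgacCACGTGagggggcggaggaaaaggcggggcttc
From the start used for each window, the E-box begins at −4 in Plin2, −44 in Mgll and −155 in Lipe, so its place differs between them.

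Genes around the pathway were taken from 6 further lists, with 115 of 122 genes measured. Of these 19 rose and 21 fell, together 34.8%, beside 18.7% of all genes. Among genes above the 50th percentile of level 33.4% changed, but the 115 include dim genes, 12 of them among the dimmest 25% of probesets. The 33.4% is therefore not a like comparison for these lists, here or below. The direction of change differed from list to list. Up to 4 genes per list, those with the smallest p, are given by rule, and the others named here were picked after their values were seen.

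Beta oxidation, the breakdown of fatty acids in mitochondria and peroxisomes, had 9 of 23 genes higher and none lower. This was 39.1%, beside 9.62% of all genes that were higher. Of genes above the 50th percentile of level, 33.4% changed in either direction. The median log2 fold change of the list was 0.27, beside −0.02 over all genes, and 21 of the 23 were above 0. Cpt1a encodes the carnitine palmitoyltransferase that controls entry of long chains into mitochondria. It was at 10.56, 10.52 and 10.47 with Nedd4 siRNA, against 9.40, 9.61 and 9.38 with control siRNA. The groups were far apart, and Cpt1a was 2.08-fold higher (1.05, SE 0.093, adjusted p = 1.21e-05). Acadm, the medium-chain acyl-CoA dehydrogenase, was at 10.47, 10.46 and 10.36 with Nedd4 siRNA and 9.39, 9.62 and 9.35 with control siRNA, and was 1.97-fold higher (adjusted p = 2.87e-05). Acox3, a peroxisomal oxidase, rose by 0.68 (adjusted p = 0.000308) and Etfdh, which passes electrons from the dehydrogenases to the respiratory chain, by 0.67 (adjusted p = 0.000466). Echs1 (0.67), Acadvl (0.57), Cpt2 (0.46), Hsd17b4 (0.42) and Etfb (0.34) were the others that passed. Hadha (0.11, 95% interval −0.10 to 0.32), Hadhb (0.13, −0.06 to 0.33) and Acadl (0.04, −0.16 to 0.23) of the same cycle did not pass. The methods' t-test gave 7 higher and none lower, and between 9 and 11 were higher in the fits that left out 1 array.

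**Figure D4:**
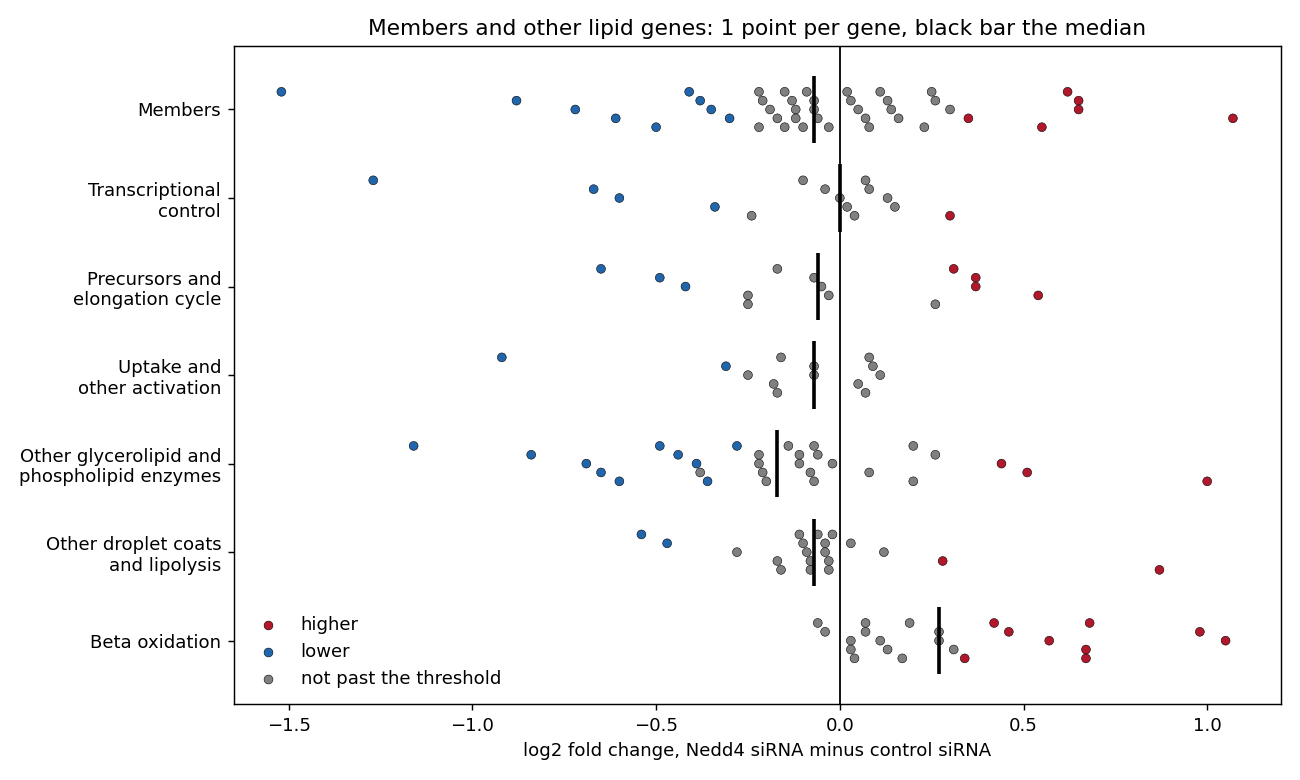
Log2 fold change (Nedd4 siRNA minus control siRNA, x axis) of each gene in the 44 members and the 6 other lipid lists, red where higher, blue where lower and grey where not past the threshold, with the list median as a black bar. The beta oxidation list has a median of 0.27 and no gene that fell, while the other glycerolipid and phospholipid enzymes have a median of −0.17.

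The other glycerolipid and phospholipid enzymes had 3 of 30 genes higher and 10 lower, with a median of −0.17. Together this was 43.3%, beside 18.7% of all genes and 33.4% of those above the 50th percentile of level. Lpgat1, a lysophospholipid acyltransferase, was at 9.00, 9.04 and 9.08 with Nedd4 siRNA against 10.29, 10.18 and 10.12 with control siRNA. The groups lay more than 1 log2 unit apart, and Lpgat1 was 2.23-fold lower (−1.16, SE 0.087, adjusted p = 4.29e-06). Chpt1, the cholinephosphotransferase that ends the choline branch, was 1.79-fold lower (−0.84, adjusted p = 2.96e-05). Lpcat3, which places polyunsaturated chains in phospholipids, was 1.57-fold lower (−0.65, adjusted p = 0.000289). Ptpmt1, a mitochondrial phosphatase of cardiolipin synthesis, rose 2.00-fold, with 8.81, 8.93 and 8.75 on the Nedd4 siRNA arrays and 7.79, 8.00 and 7.69 on the control siRNA arrays (1.00, adjusted p = 3.37e-05). The count of lower genes was 7 with each array centred on its median and 5 by the methods' t-test. It was also 5 without Nedd4 siRNA replicate 1, without Nedd4 siRNA replicate 3 or without control siRNA replicate 2.

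Among 15 regulators of lipid gene transcription, 1 rose and 4 fell. Together this was 33.3%, beside 18.7% of all genes. The 33.4% of genes above the 50th percentile is not a like comparison, since dim regulators are among the 15. In the fit without the dimmest 50% of probesets 9 regulators were left, of which 1 rose and 4 fell. Insig1, which holds the SREBP complex in the endoplasmic reticulum and is itself a target of SREBP, was at 9.00, 9.06 and 8.82 with Nedd4 siRNA against 10.02, 10.41 and 10.27 with control siRNA. It was 2.42-fold lower (−1.27, SE 0.11, adjusted p = 1.21e-05). Srebf2, the SREBP gene linked mainly to cholesterol synthesis, fell by 0.67 on the log2 scale (adjusted p = 0.00183) and Scap, which escorts SREBPs to the Golgi, fell by 0.60 (adjusted p = 0.000738). Insig2 rose by 0.30 (adjusted p = 0.0257), a call lost without any 1 of the Nedd4 siRNA arrays or without control siRNA replicate 3. By the methods' t-test 1 of the 15 rose and 2 fell. Srebf1, the SREBP gene linked mainly to fatty acid synthesis, was at 8.16, 8.17 and 8.01 with Nedd4 siRNA and 8.04, 8.37 and 7.92 with control siRNA, with a log2 fold change of 0.00 and a 95% interval of −0.25 to 0.26.

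The 14 genes of precursor supply and of the later steps of elongation had 4 higher and 3 lower. The share that changed was 50% here, 15.4% in the uptake list and 20% in the other droplet and lipolysis list. Over all genes it was 18.7%, and 33.4% among those above the 50th percentile of level. Hacd3, a dehydratase of the elongation cycle, fell by 0.49 on the log2 scale (adjusted p = 0.00191), and Acss1 and Acss2, which make acetyl-CoA from acetate, fell by 0.65 (adjusted p = 0.00314) and 0.42 (adjusted p = 0.00425). Idh1, a source of cytosolic NADPH, rose by 0.54 (adjusted p = 0.00270). The higher count was 1 by the methods' t-test, without Nedd4 siRNA replicate 1 and without both arrays numbered 2, a fit added after the data were seen. Of 13 genes of uptake and other activation, Slc27a6, a fatty acid transport protein, was 1.89-fold lower (−0.92, adjusted p = 2.55e-05), Acbd3 fell by 0.31 (adjusted p = 0.0386) and none rose. The call of Acbd3 was lost with median centring and in 5 of the 6 fits that left out an array. Of 20 other droplet and lipolysis genes, Abhd5, the co-activator of the lipase encoded by Pnpla2, was at 9.35, 9.45 and 9.41 with Nedd4 siRNA and 8.61, 8.65 and 8.35 with control siRNA. It was 1.82-fold higher (0.87, SE 0.099, adjusted p = 8.03e-05). Angptl4, an inhibitor of lipoprotein lipase, rose by 0.28 (adjusted p = 0.0459), a call lost in each of those 6 fits, and Cideb (−0.54, adjusted p = 0.00968) and Lmf1 (−0.47, adjusted p = 0.00610) fell.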

How the data were processed

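RNA of NCU10K cells was measured 48 h after transfection with Nedd4 siRNA or control siRNA (3 arrays each). The deposited log2 expression values were made by the authors from array scans in Partek (6.5, per the submitters' processing notes), using the background correction of RMA, Partek's correction for GC content and the mean of the probes. Any normalisation between arrays is not given in the sources used here, and none was added. The number of arrays limits the precision. No depth applies to arrays.

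All 28440 probesets were fitted with limma 3.58.1 in R 4.3.3 (lmFit, then eBayes at defaults, with no covariate), with Benjamini-Hochberg adjustment over all probesets at 0.05. The annotation gives 1 symbol to 21780 probesets, several to 1618 and none to 5042. A gene is represented by its single-symbol probeset with the highest mean. Symbols were updated through RefSeq gene IDs. The fit was tested on simulated data. The repeats are called biological replicates; p-values measure the spread between these arrays. Ratios of paired members were compared by exact permutation over arrays. Motifs were counted in RefSeq promoter windows of GRCm38.p6 with Python 3.11.15 and pandas 2.3.3, and figures drawn with Matplotlib 3.10.9.

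The members, gene lists and markers were chosen with earlier results of these data known. Every member past the threshold is named with its array values, as are the up to 6 others with the smallest p and all whose groups do not overlap; the rest are named with their fold change. From each of the 6 other lipid lists up to 4 genes past the threshold with the smallest p are named, or 2 where none passes. Marker lists are given as counts and means, with some markers named after their values were seen. In the closing section 4 lists were added after the values were seen. The study's methods name an ANOVA; run here with the siRNA as factor, it is called the methods' t-test and is an alternative. Others were a trended and robust eBayes, array weights, quantile normalisation, median centring, the replicate block, filters on the dimmest 25% or 50% of probesets, fitting single-symbol probesets alone, averaging the probesets of a gene, a threshold of 0.01 and leaving out each array in turn.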

Additional observations from a re-analysis of the deposited data

How the results depend on the processing

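The limma fit reported above gave 6 members higher and 9 lower (1918 and 1819 genes overall). The methods' t-test gave 3 and 3 (954 and 850 genes), and a threshold of 0.01 gave 5 members lower, with 1188 genes higher and 1174 lower. Array weights gave 10 members higher, adding Scd1, Etnk1, Agpat4 and Lpin3. Leaving out each array in turn gave 5 to 6 members higher and 5 to 9 lower, with 1194 to 2004 genes higher and 1224 to 1794 lower. The count of lower members was 5 without Nedd4 siRNA replicate 1, Nedd4 siRNA replicate 3 or control siRNA replicate 2. Median centring lost Fads2 and Acaca. Without both arrays numbered 2, a setting added after the data were seen, 5 members were higher and 6 lower, and Fads2, Acaca, Ptdss2 and Lipe were lost. Of members not past the threshold, array weights turned Elovl7 to 0.03, and leaving out 1 array gave −0.02 to 0.04 for Acacb, −0.02 to 0.09 for Elovl4, −0.11 to 0.06 for Elovl7, −0.04 to 0.19 for Agpat5 and −0.15 to 0.20 for Pcyt1a. The log ratio of Cds1 to Cds2 ranged from −0.03 to 0.21. The cause of these differences was not tested. Counted over the members, Nedd4 and the genes named by rule from the 6 other lipid lists, with each gene taken once per setting, 69 calls were lost, 12 were gained, 8 values changed sign and 1102 kept direction and call. The labels do not say whether a repeat number marks arrays handled together. Deviations of arrays with the same number correlated at −0.012, 0.472 and −0.013, the highest value being for the arrays numbered 2. For arrays with different numbers the correlations ranged from −0.426 to 0.415. With 3 arrays per group these values cannot decide whether the samples were paired. With the replicate block the same 15 members passed, 6 higher and 9 lower, and 2037 genes were higher and 1963 lower. With 3 arrays per group and dim signal for 4 members, small changes could not be seen.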

Other observations

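Of 21 measured sphingolipid genes, a list chosen after the values were seen, 2 were higher and 4 lower (28.6%, beside 18.7% of all genes and 33.4% of those above the 50th percentile of level). The 33.4% covers brighter genes alone, while 3 of the 21 were among the dimmest 25% of probesets. The median log2 fold change was 0.01, beside −0.02 over all genes. Sptssa, a small subunit of serine palmitoyltransferase, the first enzyme of sphingolipid synthesis, was at 7.09, 7.34 and 7.30 with Nedd4 siRNA against 8.70, 8.80 and 8.42 with control siRNA. It was 2.63-fold lower (−1.40, SE 0.11, adjusted p = 7.17e-06), and its groups were more than 1 log2 unit apart. Ugt8a (−0.65, adjusted p = 0.000842) and Gal3st1 (−0.43, adjusted p = 0.00416), which make the galactolipids of myelin, fell as well, as did Cerk, a ceramide kinase (−0.52, adjusted p = 0.00131). Samd8, related to the sphingomyelin synthases (0.64, adjusted p = 0.000713), and Kdsr, the reductase of the second step (0.47, adjusted p = 0.00248), rose.

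Of 13 acyl-CoA thioesterases, chosen in the same way, which release fatty acids from coenzyme A, Acot9 (0.38, adjusted p = 0.0192) and Acot2 (0.30, adjusted p = 0.0461) rose and none fell. Their median was 0.07, and neither call was made by the methods' t-test or without Nedd4 siRNA replicate 1. The share of the 13 that changed was 15.4%, beside 18.7% of all genes.

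Among 20 genes commonly listed as targets of the fatty acid receptor PPARA, a list also chosen after the values were seen, 7 rose and none fell, beside 9.62% of all genes that rose. The median of the 20 was 0.03, with 11 above 0. The methods' t-test gave 4 higher, and the fits that left out 1 array gave 5 to 7. Pdk4, a kinase that restrains pyruvate oxidation, was at 6.23, 6.03 and 6.18 with Nedd4 siRNA against 5.55, 5.36 and 5.45 with control siRNA (0.69, adjusted p = 0.000267), and Vnn1 rose by 0.46 (adjusted p = 0.00443). The others, Cpt1a, Acadm, Plin2, Angptl4 and Acot2, overlap with the lists above, so this count is not separate from theirs. Ppara itself did not pass (−0.04, 95% interval −0.27 to 0.19), nor did Pparg (0.07, −0.17 to 0.31). Both were dim, at percentiles 37.7 and 36.1 of mean level, where a change may not show. The brighter Ppard, named after its values were seen, was lower with Nedd4 siRNA (−0.34, SE 0.10, adjusted p = 0.042). It is among the 4 regulators counted above as having fallen. For Ppard the adjusted p of the methods' t-test was 0.197. Of 21 phospholipases A2 and lysophospholipases (also chosen after the values were seen, median −0.03), Pla2g15 (0.74, adjusted p = 0.000508) and Pnpla6 (0.59, adjusted p = 0.000938) rose, and Pla2g4c (−0.37, adjusted p = 0.0364) and Pla2g12a (−0.37, adjusted p = 0.0182) fell. Of these 21 genes 19% changed, beside 18.7% of all genes. The higher count was 1 by the methods' t-test. The lower count was 0 by that test, at a threshold of 0.01, without Nedd4 siRNA replicate 1 and without control siRNA replicate 3.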
